A study of Vitis vinifera with 8 samples.

Results

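The subject is a set of 50 grape genes that were nearly silent in green berries and well expressed in ripening ones. The genes were chosen by their RPKM values at the 2 stages: a gene entered the set when its RPKM (read count scaled to gene length and to the reads of the library) was at least 10 in each of 4 libraries taken after véraison and under 1 in each of 4 taken before it. Véraison is the onset of ripening, when the berry softens, colours and gains sugar. Of 25771 genes in the files, 55 met both thresholds. The 5 of them with a descriptive symbol (GRIP22, GST4, GER7, UFGT and HT5) were left out, so the 50 carry only a placeholder (LOC and a number) or, for 5 unmatched IDs, a bare gene number. Of the 45 matched genes, 40 are annotated as protein coding, 2 as long non-coding RNAs, 2 as pseudogenes and 1 as another RNA. The reference table gives synonyms for 1 of them, LOC100245997, listed also as PAL and PAL15. The other 49 have no annotated function there and are given none here.

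The libraries are single-end mRNA sequencing of deseeded berries from L1 Pinot Meunier microvines, a dwarf grapevine that flowers and fruits along the whole shoot. All 8 come from that 1 genotype, grown in pots in a controlled growth room at 16 °C. Post-véraison berries (12 to 14 weeks after flowering) were picked at 10 AM after 1 hour at 38 °C and at 9 AM at 16 °C, and pre-véraison berries (5 to 6 weeks) at the same temperatures and hours, with 2 biological replicates in each of the 4 groups. Each heated sample was thus also picked later in the day, and heat and the hour cannot be told apart. In RNA from whole berries, more cells of a type and more RNA per cell cannot be told apart either.

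At ripening the grape berry shifts from growth and photosynthesis to sugar storage and colour. In red berries the anthocyanin branch of the flavonoid pathway is switched on in the skin. It starts from phenylalanine ammonia-lyase (PAL), which opens the phenylpropanoid pathway. Stilbene synthase uses the same precursors as chalcone synthase and makes resveratrol instead. Both PAL and stilbene synthase belong to large gene families in grapevine, with copies that stand beside each other in the genome.

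The labels were checked on annotated genes. The heat shock chaperone gene HSP101 was at 65.2 and 45.7 RPKM at 38 °C after véraison, against 4.74 and 6.45 RPKM at 16 °C. HsfA2, a heat stress transcription factor gene, was at 73.8 and 57.1 RPKM against 1.12 and 2.75 RPKM. BiP, an endoplasmic reticulum chaperone gene, was at 4.28 and 3.96 RPKM against 3.89 and 4.13 RPKM. Before véraison HSP101 was at 944 and 1075 RPKM at 38 °C, against 7.12 and 6.34 RPKM at 16 °C. There HsfA2 was at 562 and 658 RPKM against 3.14 and 1.69 RPKM, and BiP at 9.75 and 9.80 RPKM against 2.66 and 3.26 RPKM. The chlorophyll synthesis gene CHLH ran from 4.17 to 7.79 RPKM after véraison and from 65.1 to 145 RPKM before it, and the photosystem gene PSBP1 from 17.1 to 27.4 and from 453 to 622 RPKM. PSBP2 and NDHM were also lower in each post-véraison library than in each pre-véraison one. The ripening genes MRIP1 and TL3 ran from 11907 to 15867 RPKM after véraison and from 134 to 382 RPKM before it. The proanthocyanidin genes ANR, LAR1 and LAR2, active in seeds and young skin, were at most 1.62, 0.34 and 1.58 RPKM after véraison. Before it ANR ran from 1.94 to 4.29 RPKM, LAR1 from 0.10 to 0.71 RPKM and LAR2 from 14.9 to 16.9 RPKM. The library denominators, recovered from the RPKM steps, were 8167704 to 11243341 reads after véraison and 6047199 to 8821163 before it.

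The stage difference chose these genes and is therefore described without a test. Summed over the 50 genes, the level was 2886 and 3353 RPKM at 38 °C and 2733 and 2294 RPKM at 16 °C after véraison. Before véraison the same sum was 19.7 and 16.1 RPKM at 38 °C and 16.1 and 9.16 RPKM at 16 °C. In reads, a gene had 131 to 13078 (median 1902.5) over the 4 post-véraison libraries and at most 40 (median 12) over the 4 pre-véraison ones. For the 37 genes with more than 3 reads before véraison, the ratio of the pooled RPKM after over before véraison had a median of 97.8 and ran from 22.1 to 1602. Another 9 genes had 1 to 3 reads before véraison, and no ratio is given for them. These levels rest on few reads before véraison, and 3 reads of a gene of median length make 0.26 to 0.38 RPKM there.

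**Figure D1:**
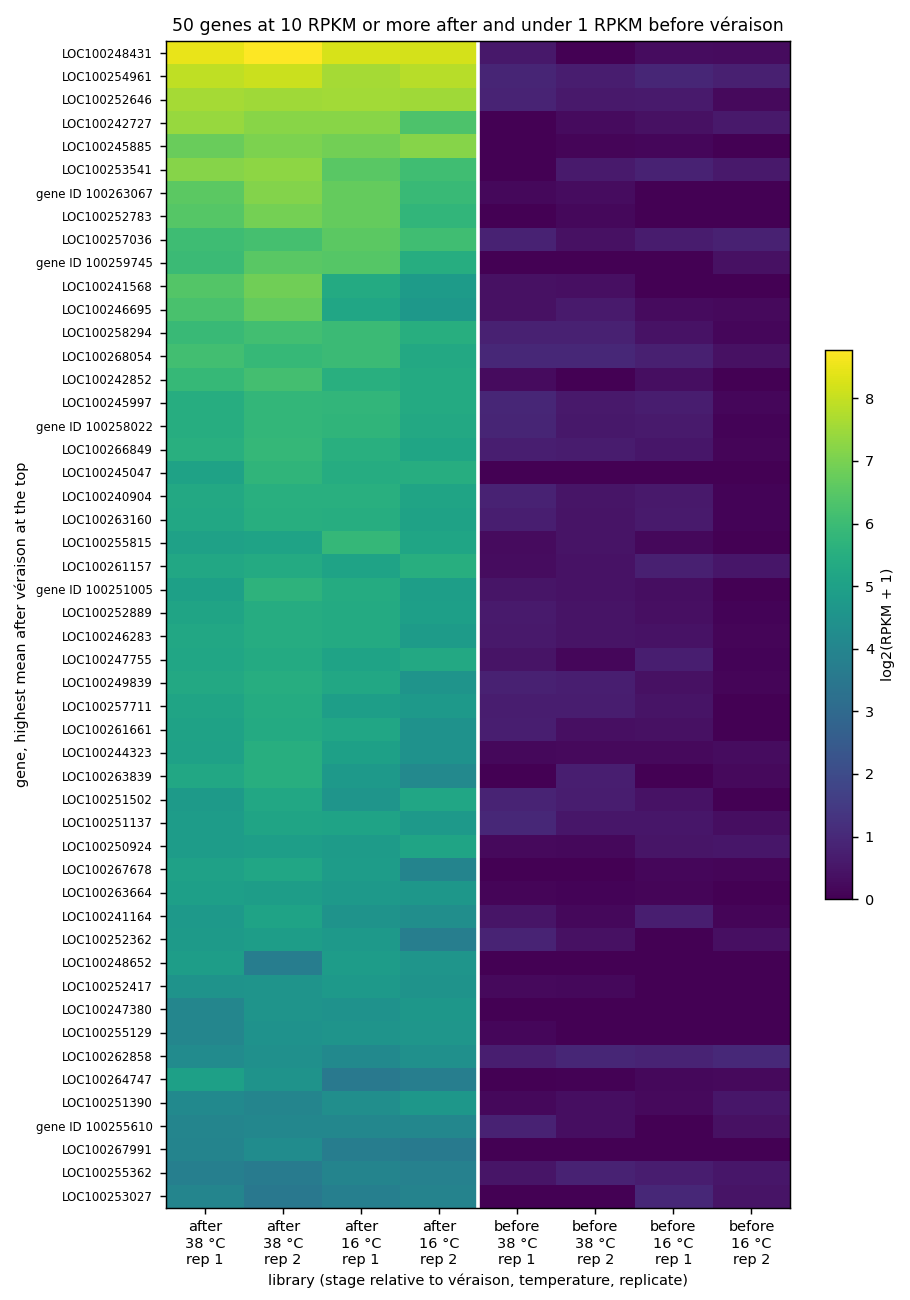
Level of each of the 50 genes (rows, highest mean after véraison at the top) in each of the 8 libraries (columns), coloured by log2(RPKM + 1). The contrast between the left and right sides is what the genes were chosen for; within the left side, replicate 2 at 16 °C is the lowest post-véraison library for 32 of the 50 genes.

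Among the genes, mean levels after véraison ran from 13.1 to 346 RPKM, with a median of 36.7, and 6 genes averaged over 100 RPKM. The highest was LOC100248431, at 353 and 436 RPKM at 38 °C and 299 and 294 RPKM at 16 °C. Before véraison it was at 0.49 and 0 RPKM at 38 °C and 0.21 and 0.18 RPKM at 16 °C, from 5 reads in all. LOC100254961 followed with 244 and 269 RPKM at 38 °C and 192 and 229 RPKM at 16 °C. Both genes were higher in each heated library than in each unheated one, by less than the test required (limma adjusted p = 0.50 and 0.54).

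LOC100252646 was the steadiest of the abundant genes. It was at 194 and 183 RPKM at 38 °C and 188 and 183 RPKM at 16 °C, and its log2 difference with heat was 0.02 ± 0.16 (SE). LOC100245885 was at 109 and 132 RPKM at 38 °C and 119 and 143 RPKM at 16 °C, with only 2 reads over the 4 pre-véraison libraries. LOC100242727 was at 169 and 147 RPKM at 38 °C and 148 and 78.9 RPKM at 16 °C, so that the unheated replicates differed more than the heated and unheated means. The long non-coding RNA gene LOC100257036 was at 65.8 and 72.2 RPKM at 38 °C and 92.7 and 67.2 RPKM at 16 °C, and its groups overlapped.

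Of the 50 genes, 4 had no read in any pre-véraison library. The pseudogene LOC100245047 was at 32.0 and 52.9 RPKM at 38 °C and 42.6 and 43.6 RPKM at 16 °C. Against a floor of 3 reads over the 4 pre-véraison libraries, its pooled level was at least 227-fold higher after véraison. By the same floor LOC100247380 was at least 164-fold, LOC100248652 at least 128-fold and LOC100267991 at least 33.3-fold higher. A floor and a read count cover counting error only.

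The edges of the thresholds were populated on both sides. Just inside the upper threshold, LOC100253027, LOC100264747 and LOC100267991 had post-véraison minima of 10.5, 10.7 and 11.2 RPKM. Just outside, LOC100266268, LOC100248798 and LOC100255943 had minima of 9.88, 9.69 and 9.68 RPKM. Just inside the lower threshold, LOC100262858, LOC100268054 and LOC100253027 had pre-véraison maxima of 1.00 (0.997 unrounded), 0.99 and 0.97 RPKM. Just outside, LOC100217471, LOC100247990 and LOC100264844 had maxima of 1.01, 1.01 and 1.02 RPKM.

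Heat at a given stage was not itself a criterion, but the thresholds were set on heated and unheated libraries alike, so a gene could also miss the set through its values at 1 temperature. On unheated libraries alone, 72 genes met the same rule, against 50. After véraison most of the 50 genes did not pass the test with heat, and the 3 that did all rose at 38 °C: LOC100241568, LOC100246695 and LOC100264747. LOC100241568 and LOC100246695 rose to a mean of 100.1 and 89.5 RPKM at 38 °C, against 33.3 and 30.2 RPKM at 16 °C, and are neighbours in the genome. The fit was made with limma on log2(RPKM + 1) over all 16777 genes that reached 1 RPKM in 2 or more libraries, with Benjamini-Hochberg adjustment and a threshold of 0.05. All 50 genes passed that filter, as the rule for choosing them guarantees. Of the 50, 3 (6.00%) were called higher and 0 lower, while over all genes tested 1.09% were called higher and 0.161% lower. These calls, and each SE given here, use 1 spread per gene, taken from all 8 libraries. For the 50 genes it includes pre-véraison values that the rule held under 1 RPKM. Their share is therefore not read against that of all genes. At an unadjusted limma p under 0.05, 11 were higher and 1 lower, against 6.20% and 3.48% of all genes tested. Among the 6578 genes with at least 10 RPKM in each post-véraison library, 0.760% were called higher at the adjusted threshold. Over all genes, limma voom on the recovered reads called 308 in either direction, against 210 in the main fit. Of the 50 it called 7 higher and 0 lower, adding LOC100253541, LOC100263839, LOC100242852 and LOC100267678. With only the 4 post-véraison libraries in the fit, 0 were called in either direction, and without replicate 2 of the heated berries 1 was.

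LOC100241568 was at 84.0 and 116 RPKM at 38 °C and 39.7 and 27.0 RPKM at 16 °C after véraison. Both heated libraries lay above both unheated ones. The heated mean was 100.1 ± 22.7 RPKM and the unheated mean 33.3 ± 9.03 RPKM (SD, n = 2 each), and the log2 difference was 1.56 ± 0.21 (SE, limma adjusted p = 0.0041). LOC100246695 was at 75.0 and 104 RPKM at 38 °C and 35.5 and 24.9 RPKM at 16 °C, again with no overlap. Its log2 difference was 1.54 ± 0.21 (SE, limma adjusted p = 0.0047). Each was called in 12 of 14 settings. Of the 14, only the fit with the 4 post-véraison libraries left out the pre-véraison values, which the rule held under 1 RPKM, and neither was called there. The exceptions were the fit with only the 4 post-véraison libraries (limma adjusted p = 0.18 and 0.17) and the fit without replicate 2 of the heated berries (0.059 and 0.067).

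LOC100264747 was at 30.5 and 21.6 RPKM at 38 °C and 10.7 and 12.6 RPKM at 16 °C after véraison. Its log2 difference was 1.08 ± 0.19 (SE, limma adjusted p = 0.022), with no overlap between the groups. This gene was called in 7 of 14 settings, with adjusted p-values from 2.2e-04 to 0.22. The call was lost with a pseudocount of 0.1 (limma adjusted p = 0.20) and with no filter on low values (0.095). It was also lost with the replicate block (0.10) and with only the 4 post-véraison libraries (0.22). The other settings that lost it each left out 1 library. Without 1 library its log2 difference ran from 0.84 to 1.32.

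**Figure D2:**
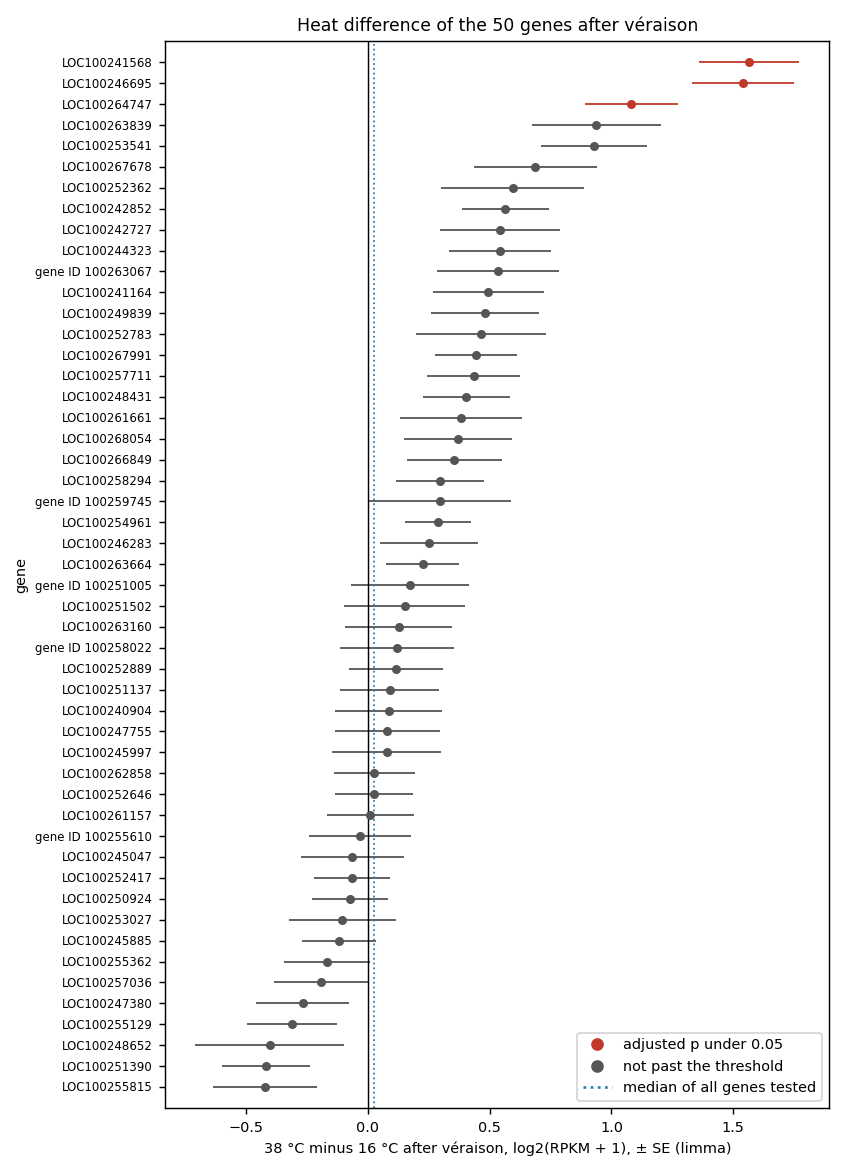
Difference between 38 °C and 16 °C after véraison for each of the 50 genes, on the log2(RPKM + 1) scale (points, limma; bars, ± SE). The 3 genes in red passed an adjusted p of 0.05; the differences ran from -0.42 to 1.56, and the dotted line is the median of all genes tested (0.02).

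Beyond the calls, 37 of the 50 log2 differences were positive, while 55.9% of all genes tested and 61.8% of the 6578 genes with at least 10 RPKM in each post-véraison library had a positive one. Their median was 0.20, against 0.02 over all genes tested, and they ran from -0.42 to 1.56. In 16 genes (32.0%) both heated libraries lay above both unheated ones, against 23.9% of all genes tested, and in 4 genes (8.0%) below, against 16.4%. The median rested largely on replicate 2 of the unheated berries: without that library it was 0.05. It was 0.34 without replicate 1 of the unheated berries, 0.31 without replicate 1 of the heated berries and 0.12 with quantile normalization. The lowest values belonged to LOC100255815, at 31.7 and 33.4 RPKM at 38 °C and 55.9 and 34.6 RPKM at 16 °C, and to LOC100251390, at 16.7 and 14.9 RPKM against 19.4 and 23.7 RPKM. Neither passed the threshold (limma adjusted p = 0.58 and 0.49).

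Replicate spread after véraison is given as a description, since the genes share libraries and no test was run on it. At 16 °C after véraison replicate 1 exceeded replicate 2 in 36 of the 50 (72.0%), with a median ratio of 1.31. Over the same 6578 genes, 42.9% had the higher value in replicate 1, and the median ratio was 0.98. The unheated replicates were more than 1.5 times apart in 12 of the 50 genes (24.0%), against 2.07% of the 6578. At 38 °C the order was the other way, with replicate 1 above replicate 2 in 9 of the 50 genes (18.0%) and a median ratio of 0.85, against 43.1% and 0.98 over the 6578. The heated replicates were more than 1.5 times apart in 4 of the 50 (8.0%), against 0.623%. For 32 of the 50 genes (64.0%) replicate 2 at 16 °C was the lowest of the 4 libraries, against 24.2% of the 6578. That library also had the higher HSP101 and HsfA2 values of the unheated post-véraison pair (6.45 and 2.75 RPKM), and their part in this spread was not tested.

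**Figure D3:**
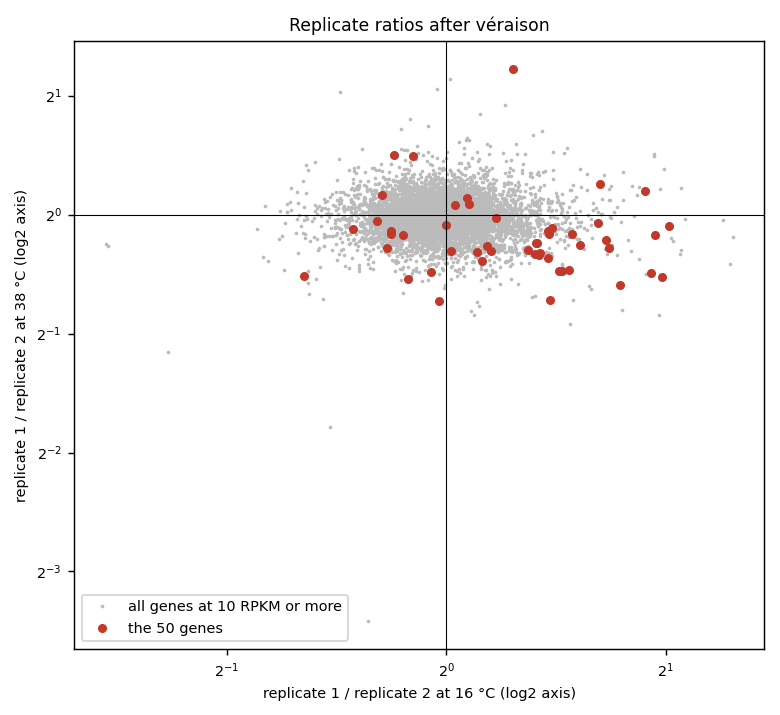
Ratio of replicate 1 to replicate 2 at 38 °C (vertical, log2 axis) and at 16 °C (horizontal, log2 axis) after véraison, for the 50 genes (red) and for all 6578 genes with at least 10 RPKM in each of these libraries (grey). The red points lie mostly to the lower right, with median ratios of 0.85 at 38 °C and 1.31 at 16 °C.

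Many of the 50 genes stand next to each other. Gene order, like the symbols and gene types, came from the reference annotation of another assembly. In it, 18 of the 45 matched genes (40.0%) had another of the 50 on the same chromosome with at most 5 genes between. Of all 18647 matched genes in the files, 1.56% had one of the 50 within that reach. With GER7 and GRIP22 counted as neighbours, 20 of the 45 fell into 6 runs. Reads that match several genes can be split or shared between neighbouring copies, and how the authors treated them is not given in the sources used here, so the levels within a run are uncertain and its genes are not independent. Sequences were not compared here.

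The run with the heat calls spans 6 neighbouring genes, 5 of them in the set. In order along the chromosome these are LOC100248431, LOC100253541, LOC100258684, LOC100263839, LOC100241568 and LOC100246695. The third of them missed the set because it fell under 10 RPKM at 16 °C. All 5 members were higher in both heated libraries than in both unheated ones after véraison, as were 23.9% of all genes tested. Summed over the 5, the level was 693 and 856 RPKM at 38 °C and 492 and 429 RPKM at 16 °C. The log2 differences ran from 0.40 for LOC100248431 to 1.56 for LOC100241568.

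Within that run, LOC100253541 was at 144 and 156 RPKM at 38 °C and 92.3 and 66.2 RPKM at 16 °C. LOC100263839 was at 36.9 and 44.0 RPKM at 38 °C and 25.4 and 16.6 RPKM at 16 °C. Neither passed in limma (log2 differences of 0.93 ± 0.22 and 0.94 ± 0.26, SE; adjusted p = 0.099 and 0.19), though voom called both (adjusted p = 4.6e-04 and 0.0052). LOC100258684, outside the set, was at 15.0 and 16.8 RPKM at 38 °C and 8.19 and 8.54 RPKM at 16 °C (0.85 ± 0.17, SE; limma adjusted p = 0.047, called in 5 of 14 settings). Adjoining LOC100248431 on its other side, LOC100244918 was at 78.2 and 101 RPKM at 38 °C and 40.7 and 36.9 RPKM at 16 °C (1.18 ± 0.68, SE; limma adjusted p = 0.65). On the side after LOC100246695, the adjoining LOC100251830 was at 30.2 and 25.6 RPKM at 38 °C and 26.0 and 30.3 RPKM at 16 °C, and at 19.3 to 41.9 RPKM before véraison.

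Another run lies beside VINST1, an annotated stilbene synthase gene, and holds 6 of the 50 genes among 11 annotated ones: LOC100258294, LOC100241164, LOC100246283, LOC100261661, LOC100266849 and LOC100249839. Their sum was 240 and 284 RPKM at 38 °C and 241 and 169 RPKM at 16 °C after véraison. VINST1 was at 97.0 and 108 RPKM at 38 °C and 88.6 and 68.3 RPKM at 16 °C, and missed the lower threshold with up to 1.42 RPKM before véraison. Next to VINST1, LOC100242994 ranged from 107 to 169 RPKM after véraison and reached 2.23 RPKM before it. Adjoining the run on its other side, LOC100263437 ranged from 59.2 to 110 RPKM after véraison and reached 1.09 RPKM before it. The highest member was LOC100258294, at 61.1 and 68.6 RPKM at 38 °C and 61.8 and 44.7 RPKM at 16 °C. Heat gave log2 differences of 0.25 to 0.49 in the 6 genes, none past the threshold (limma adjusted p = 0.53 to 0.79), and 0.39 ± 0.20 (SE) in VINST1 (limma adjusted p = 0.58). In all 6, replicate 2 was the lower of the unheated libraries and the higher of the heated ones. That order was common in the set: replicate 1 exceeded replicate 2 in 36 of the 50 genes at 16 °C and in 9 at 38 °C. The annotated pseudogenes LOC100251425 and LOC100244710 in the same run stayed under 1 RPKM in all 8 libraries.

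The run that includes LOC100245997 (PAL15) holds 5 of the 50 genes among 11 annotated ones, all 5 of those measured. LOC100245997 was at 43.6 and 54.5 RPKM at 38 °C and 53.5 and 39.8 RPKM at 16 °C, and at 0.92 and 0.52 RPKM against 0.63 and 0.12 RPKM before véraison. LOC100251137, LOC100240904, LOC100263160 and LOC100252889 ranged from 25.3 to 45.6 RPKM after véraison. Adjoining the run, LOC100256293 ranged from 31.1 to 45.8 RPKM after véraison and missed the lower threshold with up to 1.07 RPKM before it. Next to that gene, the transcribed pseudogene GVVPAL2 was at 34.5 and 43.2 RPKM at 38 °C and 41.5 and 30.002 RPKM at 16 °C. GVVPAL2 missed the lower threshold with 1.09 RPKM in 1 heated pre-véraison library. Over the 50 genes, the median of replicate 1 over replicate 2 was 0.85 at 38 °C and 1.31 at 16 °C. The 5 genes of the run had ratios near these, 0.79 to 0.85 at 38 °C and 1.29 to 1.34 at 16 °C. Their log2 differences with heat were 0.08 to 0.13 (limma adjusted p = 0.93 to 0.97).

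**Figure D4:**
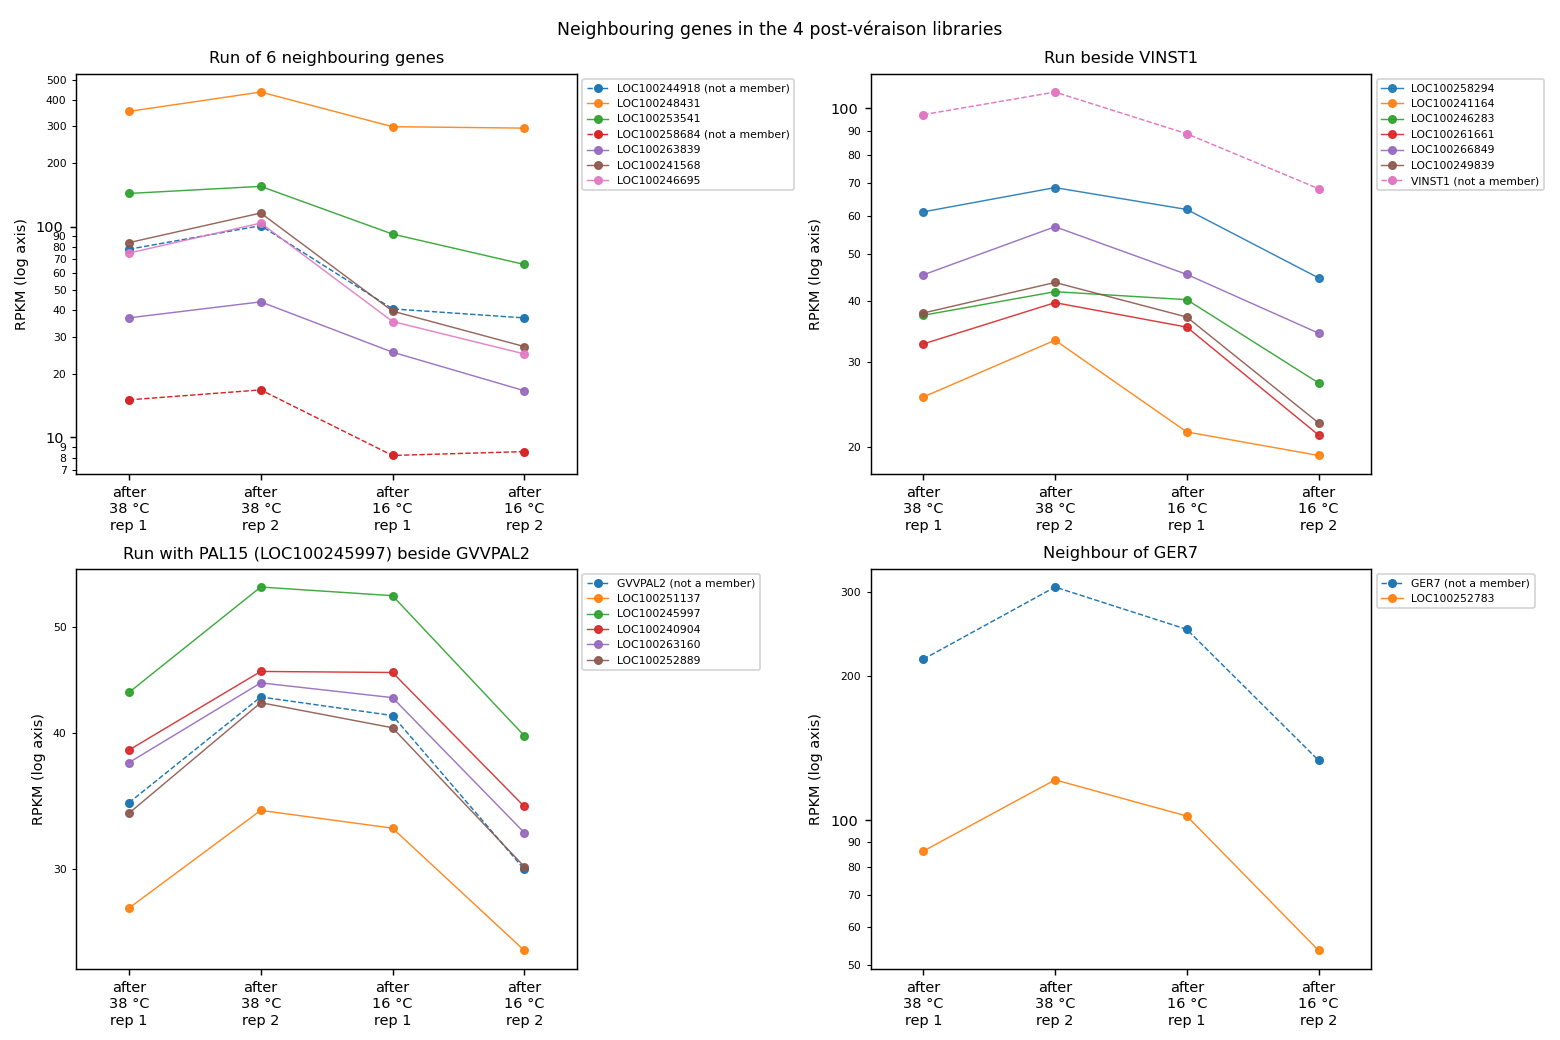
RPKM (log axis) in the 4 post-véraison libraries for genes of 4 runs; solid lines are genes of the set, dashed lines neighbours outside it, and lines join the values of a gene only to guide the eye. In the run of 6 genes each one is higher in both heated libraries, as are 23.9% of all genes tested. In the run with PAL15 the heated and unheated libraries overlap. Its genes keep the same order of libraries, highest in replicate 2 at 38 °C and lowest in replicate 2 at 16 °C. Over the 50 genes, 32 were highest in the former and 32 lowest in the latter.

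The remaining runs are pairs. LOC100252783, with 1 unmeasured gene between it and the germin-like gene GER7, was at 86.3 and 122 RPKM at 38 °C and 102 and 53.5 RPKM at 16 °C. GER7 itself was at 217 and 307 RPKM at 38 °C and 250.4 and 133 RPKM at 16 °C. Both had their highest value in replicate 2 at 38 °C and their lowest in replicate 2 at 16 °C. LOC100261157 and LOC100250924, with 1 gene between, had their highest value in replicate 2 at 16 °C (44.4 and 33.5 RPKM), unlike most of the set. The pseudogene LOC100245047 is next to the ripening-induced gene GRIP22, which was at 371 and 546 RPKM at 38 °C and 470.3 and 508 RPKM at 16 °C.

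The 5 genes with a symbol that met the same thresholds gave 0 calls with heat after véraison (limma adjusted p = 0.59 to 0.92). At an unadjusted limma p under 0.05 and by limma voom they also gave 0. Over all genes tested 1.09% were called higher and 0.161% lower at the adjusted threshold. With so few genes, 0 calls are not read as a contrast to the set. GST4, a glutathione S-transferase gene of anthocyanin transport, was at 405 and 351 RPKM at 38 °C and 332 and 325 RPKM at 16 °C. UFGT, the gene of the enzyme that adds glucose to anthocyanidins, was at 55.4 and 35.8 RPKM at 38 °C and 42.1 and 39.2 RPKM at 16 °C. HT5, a hexose transporter gene, was at 28.1 and 33.5 RPKM at 38 °C and 33.1 and 22.6 RPKM at 16 °C.

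Before véraison the heat values of the 50 genes are given as a description. The choice of genes held each value under 1 RPKM, which caps a difference on the log2(RPKM + 1) scale, and the genes passed the filter on low values only through their post-véraison libraries. By limma 0 of the 50 were called higher and 1 lower at 38 °C, beside 7.96% higher and 12.4% lower over all genes tested. At an unadjusted limma p under 0.05, 4 were higher and 1 lower, beside 11.8% and 21.2%. Limma voom called 0 higher and 1 lower, beside 3798 calls over all genes in either direction. Nothing is read from these counts against those shares, because the rule used the same values. The 1 gene, LOC100253027, was listed at 0 in both heated libraries and at 0.97 and 0.37 RPKM in the unheated ones, from 13 reads in all, and the call stood in 5 of 14 settings. The median log2 difference of the 50 genes was 0.08, but it was 0.56 with a pseudocount of 0.1 and 0.45 with limma voom, and 0.04 to 0.17 when 1 pre-véraison library was left out.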

How the data were processed

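Single-end mRNA libraries of deseeded grape berries, 2 for each of 4 groups, were used as RPKM deposited by the authors, 1 file per library. Per the submitters' processing notes, Bowtie 0.12.7 and TopHat 1.2.0 were used; for genome build, annotation, counting and strand, nothing is given in the sources used here. Whole reads and library denominators were recovered from the RPKM steps (20845 of 20845 genes above 0 in at least 3 libraries, tolerance 0.003 reads; checked on simulated reads; reads may be too small by a common divisor). Fits used limma 3.58.1 in R 4.3.3 on 4 group means of log2(RPKM + 1), by empirical Bayes with intensity trend. They were two-sided, with 4 residual and 6.06 prior degrees of freedom. The fit was tested on data simulated with 1 setting of replicate spread for all genes. That test does not cover the wider replicate spread of this set. Tables used Python 3.11.15. The interaction of stage and heat was not analysed here. Each group has only 2 libraries. In the main fit, p-values and SE use 1 spread per gene, pooled over the replicates of all 4 groups and moderated by the spread of other genes. They do not measure the spread of the compared libraries alone. For the genes of the set, that spread includes pre-véraison values that the rule held under 1 RPKM. Gene order, symbols, synonyms and gene types came from RefSeq's annotation of ASM3070453v1 (18647 IDs matched). The genes, lists and tests were chosen with earlier results of these data known. Named were the 12 most abundant genes, those called with heat, those at the thresholds and up to 6 neighbour runs. Motif and protein searches that had been planned were not made. Alternatives were other pseudocounts, filters, scalings, thresholds, subsets of libraries, a replicate block and limma voom. Replicate numbers did not pair libraries (r of replicate deviations between temperatures, across genes: -0.02 after and 0.03 before véraison).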

Additional observations from a re-analysis of the deposited data

Results flagged for a closer look

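In LOC100264747 the heated libraries lay above the unheated ones after véraison and below them before it. Its log2 difference was 1.08 after véraison, where both heated libraries (30.5 and 21.6 RPKM) lay above both unheated ones (10.7 and 12.6 RPKM). Before véraison it was -0.17 ± 0.19 (SE, limma adjusted p = 0.58) and did not pass the test, with 0 and 0.05 RPKM at 38 °C and 0.13 and 0.17 RPKM at 16 °C, from 0 and 1 reads at 38 °C and 2 and 3 reads at 16 °C, in values that the choice of genes held under 1 RPKM. The difference between the stages was not tested.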

How the results depend on the processing

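The number of genes in the set was 82 at 5 RPKM after véraison, 21 under 0.5 RPKM and 104 under 2 RPKM before it, against 50; at 20 RPKM, with median-ratio scaling or on unheated libraries alone it stayed within 1.5 times (36 to 72). After véraison the 3 genes called higher were 5 with a pseudocount of 5, 7 with limma voom, 0 with only the 4 post-véraison libraries and 1 to 3 without 1 library; 0 were called lower in each setting. Over all genes the 210 calls were 36 with only those 4 libraries, 126 with the replicate block and 104 to 184 without 1 library; the replicate block called 2 of the 50. Leaving out 1 library gave medians of 0.05 to 0.34. Before véraison, genes called higher and lower were 5 and 2 with a pseudocount of 0.1 and 1 and 0 with the replicate block, and 0 were lower with a pseudocount of 5, no filter, median-ratio scaling, quantile normalization or only the 4 pre-véraison libraries. Without 1 library 0 to 2 were higher and 0 to 1 lower, and all genes called ran from 2013 to 2629 against 3417. The median there was 0.56 with a pseudocount of 0.1 and 0.45 with limma voom; the cause was not tested. Differences near 0 RPKM are limited by depth, with at most 40 reads a gene.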

Other observations

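Of the 5 IDs without a match in the reference table, 3 are given here, chosen after their values were seen. Gene ID 100258022 was at 43.2 and 55.5 RPKM at 38 °C and 52.8 and 38.3 RPKM at 16 °C after véraison, beside 43.6 and 54.5 RPKM and 53.5 and 39.8 RPKM for LOC100245997 (PAL15); the recovered gene lengths were 2378 and 2377 bp. Gene ID 100263067 was at 93.7 and 141 RPKM at 38 °C and 104 and 60.1 RPKM at 16 °C, and gene ID 100259745 at 62.9 and 90.5 RPKM against 86.2 and 43.6 RPKM. Both had their highest value in replicate 2 at 38 °C and their lowest in replicate 2 at 16 °C. This was common in the set, where 32 of the 50 genes were highest in the former and 32 lowest in the latter.

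The RNA gene LOC100248652, which is not annotated as protein coding, had the largest ratio between heated replicates among the 50 (2.34), at 28.7 and 12.3 RPKM at 38 °C and 28.1 and 22.7 RPKM at 16 °C, and 0 in all 4 pre-véraison libraries. The pseudogene LOC100263664 was at 30.1 and 28.3 RPKM at 38 °C and 25.7 and 23.9 RPKM at 16 °C, with 3 reads before véraison.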
